A study of Mus musculus with 4 samples.

Results

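The genes of CD surface antigens were examined in an ATAC-seq comparison of mouse neutrophils that lack the long non-coding RNA Morrbid with wild-type neutrophils. The members were all consensus peaks whose listed gene symbol was Cd followed by a number, with or without further letters or digits. This gave 139 of 23595 peaks, assigned to 53 of 11693 gene symbols. ATAC-seq uses the Tn5 transposase to insert adapters into open chromatin, so the reads in a peak report how accessible it was. Neutrophils were sorted by flow cytometry from bone marrow without culture, and 50000 cells of each genotype were transposed in duplicate. The KO group (2 libraries) was Morrbid deficient on a C57BL6 background and the WT group (2 libraries) was wild-type C57BL6. The sources used here do not give the allele, the age or sex of the mice or the markers of the sort. They also do not say whether the duplicates came from separate animals, so each p-value reflects library-to-library spread that may be technical. Each value below is the deposited normalised signal of a peak in 1 library, and the deposited coordinates are of build mm9.

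CD numbers name surface molecules that groups of antibodies recognise, and they are used to tell blood cell lineages apart. The genes are not 1 pathway. They encode adhesion receptors, complement regulators, tetraspanins that organise receptors within the membrane, inhibitory and activating immunoglobulin-like receptors, costimulatory ligands, and subunits of antigen receptors. A gene is commonly controlled by its promoter, at the transcription start site (TSS), together with distal enhancers. Open chromatin at a lineage antigen can mark activity, poising or a neighbouring gene's element, and a peak's listed gene is simply the one with the nearest TSS. The symbol pattern also caught Cd2ap and Cd2bp2, which encode intracellular proteins and are no surface antigens.

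Promoter sequences are shown first because the genes with a peak at the TSS can be compared by what their promoters hold. The RefSeq promoters (build GRCm38.p6, 250 bases before to 50 after the start) covered 26 of the 33 genes with a listed promoter peak, in 32 entries. GAGGAAGT, the core of the consensus of the myeloid and B cell factor PU.1, was found on either strand in 6 of these 32 entries (18.8%). It was found in 0 of 16 entries of genes with distal peaks only, in 4 of 33 entries of genes with no listed peak (12.1%) and in 3.2% of all 32851 promoters. The 6 were those of the tetraspanins Cd53 (chr3:106790100-106790399), Cd37 (chr7:45238790-45239089) and Cd82 (chr2:93461802-93462101), the paired receptors Cd300lf (chr11:115133943-115134242) and Cd300ld (chr11:114989837-114990136), and the lymphocyte antigen Cd5 (chr19:10738925-10739224). The promoter of the tetraspanin Cd9 (chr6:125494711-125495010) is shown beside them as one without the match, with 18 CpG dinucleotides against 3 to 11 in the others. All 7 lie on the minus strand and are printed 5′ to 3′ in the direction of the gene. Capitals mark GAGGAAGT and GGGCGG on either strand.
Cd53: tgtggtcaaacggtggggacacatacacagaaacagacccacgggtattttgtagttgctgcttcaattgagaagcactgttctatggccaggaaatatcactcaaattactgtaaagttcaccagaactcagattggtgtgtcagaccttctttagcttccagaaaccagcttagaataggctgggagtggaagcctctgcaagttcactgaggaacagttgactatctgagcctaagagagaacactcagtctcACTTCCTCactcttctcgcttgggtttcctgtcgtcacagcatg
Cd37: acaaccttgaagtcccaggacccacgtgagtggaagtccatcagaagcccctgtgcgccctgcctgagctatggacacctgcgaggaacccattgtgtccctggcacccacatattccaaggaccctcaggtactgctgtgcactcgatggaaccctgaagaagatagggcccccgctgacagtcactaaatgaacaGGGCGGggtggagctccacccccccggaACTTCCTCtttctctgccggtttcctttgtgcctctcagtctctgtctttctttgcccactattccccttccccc
Cd82: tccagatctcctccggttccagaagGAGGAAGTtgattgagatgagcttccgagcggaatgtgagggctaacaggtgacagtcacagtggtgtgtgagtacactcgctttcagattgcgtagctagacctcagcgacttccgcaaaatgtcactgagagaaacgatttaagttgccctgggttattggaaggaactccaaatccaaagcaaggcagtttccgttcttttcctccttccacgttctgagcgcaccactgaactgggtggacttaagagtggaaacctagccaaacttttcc
Cd300lf: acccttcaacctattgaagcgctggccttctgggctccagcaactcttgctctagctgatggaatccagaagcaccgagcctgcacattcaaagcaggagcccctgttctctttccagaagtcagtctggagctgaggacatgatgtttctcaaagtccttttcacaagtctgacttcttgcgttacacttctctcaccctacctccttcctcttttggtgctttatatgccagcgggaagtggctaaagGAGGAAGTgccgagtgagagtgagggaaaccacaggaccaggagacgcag
Cd300ld: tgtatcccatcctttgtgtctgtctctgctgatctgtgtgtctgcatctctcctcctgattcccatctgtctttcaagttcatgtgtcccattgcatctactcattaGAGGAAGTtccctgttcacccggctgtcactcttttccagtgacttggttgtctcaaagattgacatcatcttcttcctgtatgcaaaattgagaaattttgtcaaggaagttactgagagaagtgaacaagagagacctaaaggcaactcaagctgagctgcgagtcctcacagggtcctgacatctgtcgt
Cd5: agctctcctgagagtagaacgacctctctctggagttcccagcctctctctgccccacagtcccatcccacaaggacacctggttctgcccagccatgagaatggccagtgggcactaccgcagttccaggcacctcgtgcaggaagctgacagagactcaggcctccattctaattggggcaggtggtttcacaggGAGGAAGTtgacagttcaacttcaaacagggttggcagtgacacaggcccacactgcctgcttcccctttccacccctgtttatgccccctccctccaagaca
Cd9: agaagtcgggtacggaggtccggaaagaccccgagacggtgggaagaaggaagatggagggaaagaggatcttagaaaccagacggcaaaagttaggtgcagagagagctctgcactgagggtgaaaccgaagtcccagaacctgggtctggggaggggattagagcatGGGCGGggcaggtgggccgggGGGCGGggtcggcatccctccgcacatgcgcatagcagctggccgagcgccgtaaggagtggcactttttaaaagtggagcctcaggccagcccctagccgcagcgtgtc
Counted from the start site, where the first transcribed base is 1, the match began at 7 in Cd53, at -25 in Cd37, at -225 in Cd82, at 1 in Cd300lf, at -143 in Cd300ld and at -53 in Cd5. A match of letters does not show that a factor bound there. The 4 matches among genes with no listed peak were at Cd72, Cd300ld3, Cd300ld4 and Cd300ld5. The last 3 belong to the same family as Cd300ld and Cd300lf, so these entries are not independent.

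The GC box and CpG content also differed between these sets of promoters. Entries were grouped by gene, and whether a peak lay at each entry's own start site was not checked. The sets covered 15 of 20 genes with distal peaks only and 32 of 48 with no listed peak. GGGCGG, the GC box, was held by 16 of 32 entries of genes with a promoter peak (50%). It was held by 2 of 16 entries of genes with distal peaks only (12.5%) and by 5 of 33 with no listed peak (15.2%). Of all promoters 35.7% held it. The median number of CpG dinucleotides was 9.5, 3, 4 and 7 in the same order, so it was highest for genes with a promoter peak. TTNCNNAA, the loose form of the C/EBP site, was held by 13 of 32 (40.6%), 10 of 16 (62.5%), 12 of 33 (36.4%) and 40.7%. TGANTCA, the AP-1 site, was held by 3, 2 and 2 entries and by 7.81% of all promoters. CCGGAAGT, the ETS site of CpG-rich promoters, which shares GGAAGT with the PU.1 core, was held by 1, 0 and 1 entries and by 3.89% of all promoters. TATAAA was held by 2, 4 and 4 entries and by 13.6% of all promoters. All motifs were searched on both strands.

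Few CD antigen peaks passed the test between KO and WT. Of the 139 peaks, 10 rose in KO, 3 fell and 126 did not pass the test (limma adjusted p below 0.05 over all peaks). That is 9.35% called, beside 10.6% of all 23595 peaks, of which 6.08% rose and 4.55% fell. The share called among the CD genes was therefore near the background. The median log2 fold change was -0.01 over the members and -0.00 over all peaks, and the members ran from -1.18 to 0.88. Both KO libraries lay above both WT libraries in 38 members and below them in 38, where all peaks gave 28% and 27.3%. In bulk chromatin, fewer cells of a type and lower accessibility per cell cannot be told apart.

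**Figure D1:**
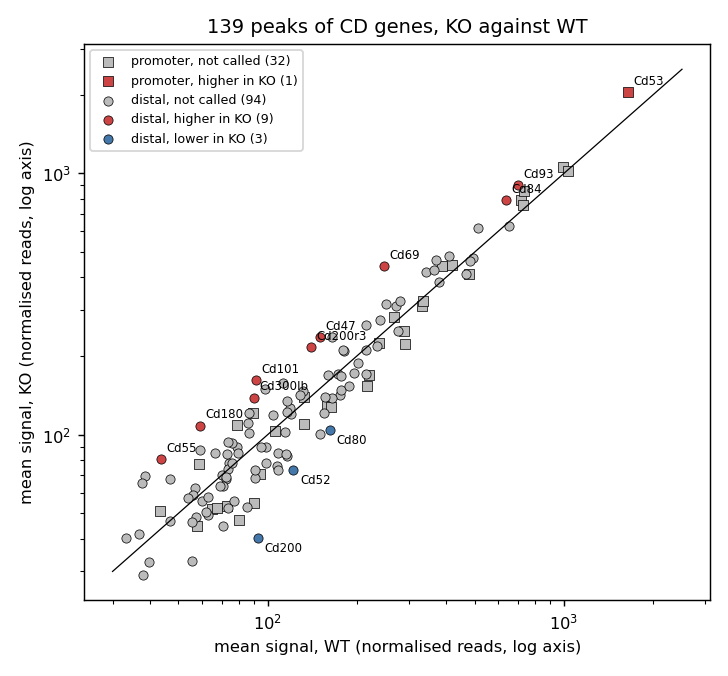
Mean signal of the 139 CD gene peaks in KO (y axis) against WT (x axis), 2 libraries each, in normalised reads on log axes; squares are promoter peaks, circles distal peaks, red peaks rose and blue peaks fell in KO. The line marks equal signal, and the called peaks include 1 promoter peak (Cd53) and 12 distal ones.

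Of the 13 calls 12 were at distal peaks, which made up 106 of the 139 members. Promoter peaks, annotated as such or centred within 1000 bp of a TSS, numbered 33, of which 1 rose and 0 fell (3.03% called). Of all 9084 promoter peaks 13.4% were called, with 7.6% higher and 5.8% lower. Both KO libraries lay above both WT libraries in 6 member promoters and below them in 13, where all promoters gave 28.9% and 30.4%. At an unadjusted p under 0.05, 4 of the 33 member promoters had a positive and 5 a negative change. Of all 9084 promoter peaks, 1428 had a positive and 1465 a negative change at that threshold. Distal peaks numbered 106, of which 9 rose and 3 fell (11.3% called). Of all 14511 distal peaks 8.9% were called, with 5.13% higher and 3.77% lower. The KO libraries lay above in 32 member distal peaks and below in 25, where all distal peaks gave 27.4% and 25.3%. The median log2 fold change was -0.09 for member promoters and 0.02 for member distal peaks, beside -0.02 and 0.01 for all promoter and all distal peaks. Signal strength moved with the calls. In the upper 25% of signal per kb, 6 of 41 members rose and 2 fell, beside 924 and 179 of 5899 among all peaks. In the remaining peaks, 4 of 98 members rose and 1 fell, beside 510 and 895 of 17696. The part of this trend in the calls was not tested.

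**Figure D2:**
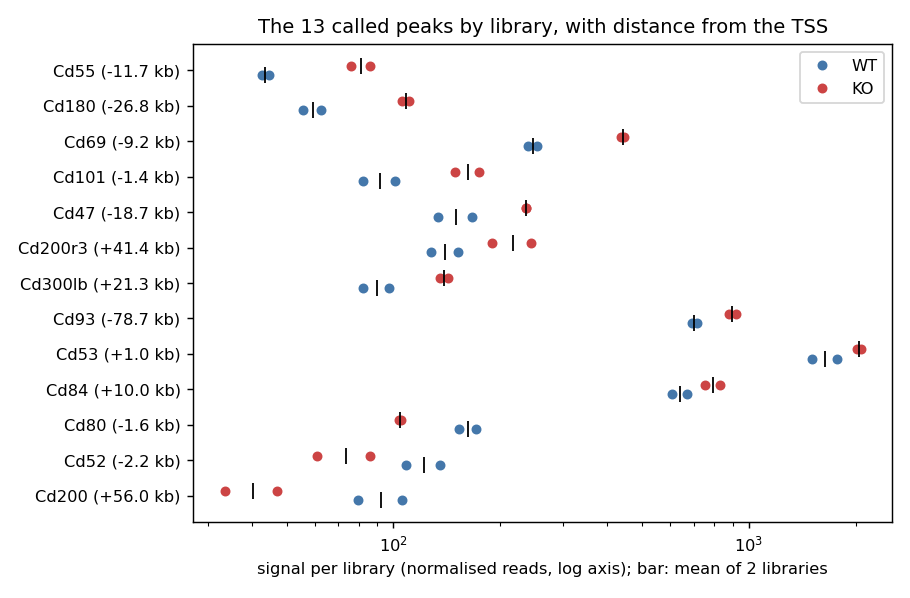
Signal of the 13 called CD gene peaks in each library (x axis, normalised reads, log axis), with the distance of each peak from its listed TSS; dots are libraries and bars are means of 2. In all 13 peaks the KO and WT libraries do not overlap, and the Cd200 peak has the largest decrease and the Cd55 peak the largest increase.

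The set of open antigens was uneven across lineages. RefSeq lists 100 protein-coding genes with such symbols, and with Cd97, now named Adgre5, 101 genes were looked up. Of these, 53 had a listed peak, 33 had a promoter peak, 20 had distal peaks only and 48 had no peak in the table. All 7 tetraspanin genes had a promoter peak. Of 17 adhesion, complement regulation and broad leukocyte antigens, 11 had a peak and 9 a promoter peak. Of 35 myeloid and granulocyte antigens, 18 had a peak but 7 a promoter peak. Of 9 antigen presentation and costimulation genes, 6 had a peak and 3 a promoter peak. Of 18 T and NK cell antigens, 5 had a peak and 2 a promoter peak. Of 6 B cell antigens, 1 had a peak and 0 a promoter peak. Genes with no listed peak included the T cell antigens Cd3e, Cd3g, Cd4, Cd8a and Cd28 and the B cell antigens Cd22, Cd79a and Cd79b. Of these, Cd79a and Cd79b form the signalling part of the B cell receptor. They also included 17 of the 35 myeloid and granulocyte antigens, such as Cd207, Cd209a, Cd300e and Cd200r2, and the broad leukocyte antigen Cd48. Absence from a consensus list does not show closed chromatin, since the rule for listing a peak is not given.

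**Figure D3:**
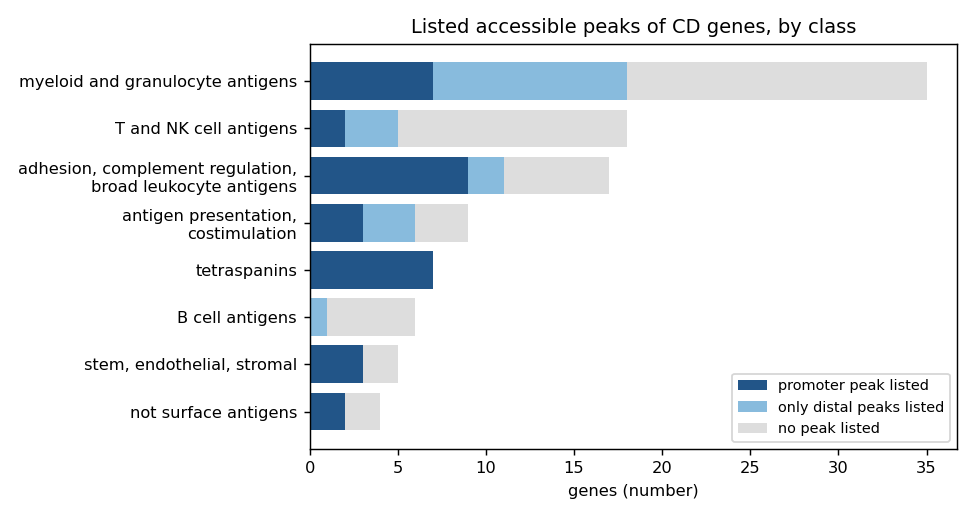
Number of CD genes (x axis) with a listed promoter peak (dark blue), with distal peaks only (light blue) or with no listed peak (grey), by class. All 7 tetraspanins have a promoter peak, while 13 of 18 T and NK cell antigens and 5 of 6 B cell antigens have no peak. Of 35 myeloid and granulocyte antigens, 17 have no peak.

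Of the 39 peaks of adhesion, complement regulation and broad leukocyte antigens, 4 rose and 2 fell, all of them distal. That is 15.4% called, beside 10.6% of all peaks. Of the distal peaks of this class 20% were called, beside 8.9% of all distal peaks. A difference from the background was not tested. The peak with the lowest p of all members lay 9172 bp upstream of Cd69, which encodes a C-type lectin induced early in leukocyte activation, in intergenic sequence at chr6:129234286-129234833. Its signal was 239 and 253 in the WT libraries and 438 and 446 in the KO libraries. Both KO libraries were far above both WT libraries. The mean rose 1.80-fold, from 246 ± 9.96 to 442 ± 5.79 (SD, n = 2 each; log2 fold change 0.84, SE 0.126, limma adjusted p = 0.000145). It held 1140 reads over the KO libraries and 345 over the WT libraries, and the depth-adjusted ratio had an exact 95% interval from 1.59 to 2.03 for counting error. The promoter peak of Cd69 had signals of 96.9 and 82.1 in WT and of 126 and 116 in KO, which did not overlap and did not pass (log2 fold change 0.44, limma adjusted p = 0.185).

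Cd47, the ligand of SIRPα that restrains phagocytosis, gained at 1 of its 5 peaks. The peak 18733 bp upstream of its TSS, in intergenic sequence at chr16:49836837-49837232, had signals of 166 and 134 in WT and 236 and 236 in KO. The KO libraries nearly coincided and lay above both WT libraries (log2 fold change 0.66, SE 0.166, limma adjusted p = 0.012). The Cd47 promoter, at 663 and 772 in WT and 752 and 826 in KO, overlapped between genotypes. Cd55 encodes decay-accelerating factor, which limits complement convertases on the cell's own surface. A weak intergenic peak 11679 bp upstream of it (chr1:132370853-132371140) rose from 42.6 and 44.5 in WT to 75.9 and 85.9 in KO (log2 fold change 0.88, SE 0.267, limma adjusted p = 0.0357, and 0.0524 under total scaling). This was the largest increase among the members. The Cd55 promoter, with 712 normalised reads per kb over all 4 libraries, had the highest signal per length of the member promoters, and its log2 fold change of 0.23 did not pass (limma adjusted p = 0.157).

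Cd84, a SLAM family receptor that binds itself on neighbouring cells, had 7 peaks. The intronic peak 10047 bp into the gene (chr1:173779465-173780285) had the highest signal per kb in its class, 869 normalised reads per kb. Its libraries read 606 and 671 in WT and 751 and 829 in KO, with no overlap (log2 fold change 0.31, SE 0.095, limma adjusted p = 0.0382). The call was lost under cyclic loess (0.18, limma adjusted p = 0.251) and under total scaling (0.25, limma adjusted p = 0.0877). The neighbouring intronic peak at 5562 bp read 525 and 499.6 in WT and 584 and 649 in KO, also separated, and did not pass (log2 fold change 0.26, limma adjusted p = 0.0976). The Cd84 promoter was far weaker, from 42.4 to 65.4 over the 4 libraries. Per length the promoter had 190.3 normalised reads per kb, so at this gene strong intronic peaks stood beside a weak promoter.

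Losses in this class were at Cd52 and Cd200. Cd52 encodes a short glycopeptide anchored to the leukocyte surface by lipid. The intergenic peak 2239 bp upstream of it (chr4:133653012-133653442) read 109 and 135 in WT and 85.7 and 61.0 in KO (log2 fold change -0.74, SE 0.232, limma adjusted p = 0.041, but 0.0593 under median centring and 0.0893 under cyclic loess). Cd200 encodes the ligand of the inhibitory receptor Cd200r1. Its single peak, 144 bp wide and 55996 bp from the TSS (chr16:45353099-45353241), fell from 79.2 and 106 to 33.6 and 47.1 (log2 fold change -1.18, SE 0.278, limma adjusted p = 0.00772), the largest decrease among the members. The deposited annotation places this peak in a simple repeat, where reads can be shared with other copies. Its counting interval for the ratio of KO to WT ran from 0.340 to 0.577, on 106 KO and 130 WT reads.

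The remaining promoters of this class did not pass. Cd24a, the heat-stable antigen carried by neutrophils and many immature blood cells, had nearly equal values, 1052 and 1016 in WT and 1031 and 1011 in KO. Cd164, a sialomucin, read 1061 and 929.7 in WT and 1049.9 and 1073 in KO. Cd44, the hyaluronan receptor, read 370 and 404 at its promoter in WT and 457 and 425 in KO (log2 fold change 0.19, limma adjusted p = 0.312). These are among the broadly carried antigens of blood cells. Cd46, a complement cofactor, had a log2 fold change of -0.09. Cd97, an adhesion G protein-coupled receptor of leukocytes, had negative values at each of its 5 peaks, from -0.57 to -0.17, none of which passed. Without WT replicate 1 the highest of them was 0.06.

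Among the 45 peaks of myeloid and granulocyte antigens 4 were called, and all 4 were increases at distal peaks. That is 8.89% called, beside 10.6% of all peaks. Of the distal peaks of this class 10.5% were called, beside 8.9% of all distal peaks. Both shares were near the background. Cd93, a C-type lectin-like glycoprotein of myeloid and endothelial cells, had 7 peaks. The one 78690 bp upstream, in intergenic sequence at chr2:148347568-148348354, had the highest signal per length of all members, 1015 normalised reads per kb, above 98.1% of all peaks. It read 689.8 and 713 in WT and 879.5 and 918 in KO (log2 fold change 0.36, SE 0.087, limma adjusted p = 0.01). Under cyclic loess scaling the change was 0.22 and did not pass (limma adjusted p = 0.115). The Cd93 promoter read 342 and 320.1 in WT and 310 and 310.4 in KO and did not pass.

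Cd101, an immunoglobulin superfamily protein that marks mature mouse neutrophils, had 6 peaks. The intergenic peak 1353 bp upstream (chr3:100834566-100834977), outside the promoter window, read 101 and 82.1 in WT and 149 and 174 in KO. The genotypes did not overlap (log2 fold change 0.81, SE 0.201, limma adjusted p = 0.0106). The Cd101 promoter itself was weak, at 82.2 and 47.3 in WT and 49.5 and 54.7 in KO, and the groups overlapped. An intronic peak 23931 bp into Cd101 read 38.2 and 39.0 in WT and 72.4 and 66.5 in KO, with a log2 fold change of 0.83 that did not pass (limma adjusted p = 0.0587). Pairs 28939 and 30002 bp upstream lie inside the neighbouring gene Ptgfrn.

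The Cd200 receptor family had 7 peaks, of which 1 rose (14.3% called, beside 10.6% of all peaks). Cd200r3 is an activating member known from mouse basophils and mast cells. The intergenic peak listed 41412 bp past its TSS (chr16:44985000-44985407) read 128 and 152 in WT and 190 and 244 in KO (log2 fold change 0.63, SE 0.177, limma adjusted p = 0.024). The single peak of Cd200r4 had a log2 fold change of 0.77, with 35.2 and 40.4 in WT and 61.8 and 68.6 in KO, and did not pass (limma adjusted p = 0.0861). Cd200r1, the inhibitory receptor for Cd200, had values of -0.10 and 0.22 at its pair of peaks. These receptor genes lie close together on chromosome 16, and which of them a distal peak serves was not tested.

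The Cd300 genes encode paired activating and inhibitory receptors of myeloid cells that bind membrane lipids, and they lie in a cluster on chromosome 11. Their 12 peaks in 5 genes gave 1 increase and 0 decreases (8.33% called, beside 10.6% of all peaks). The median log2 fold change of these peaks was -0.31, with 10 negative values. All 1491 peaks of chromosome 11 had a median of -0.13, so negative values were also common on this chromosome as a whole. The increase was 21285 bp past the TSS of the activating receptor Cd300lb (chr11:114774243-114774587), from 82.2 and 97.4 in WT to 135 and 142 in KO (log2 fold change 0.62, SE 0.204, limma adjusted p = 0.0489, and 0.0751 under total scaling). At Cd300ld the promoter read 85.1 and 75.2 in WT and 42.4 and 52.0 in KO (log2 fold change -0.76, limma adjusted p = 0.0673). At Cd300lf, an inhibitory receptor, the promoter read 153 and 174 in WT and 129.8 and 125 in KO (log2 fold change -0.35, limma adjusted p = 0.223). Both promoters were lower in each KO library than in each WT library, and neither passed. Related copies in this cluster can share reads, so single values are less certain here.

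The other myeloid antigens did not pass at any peak. Cd33, a sialic acid-binding lectin, was open at its promoter with 433 and 408 in WT and 438 and 457 in KO. Its 4 peaks had log2 fold changes from 0.09 to 0.29, all with KO above WT. The lowest of them was 0.0024 under cyclic loess and 0.036 under total scaling. Cd14, the co-receptor for lipopolysaccharide, had a single peak at its promoter with 151 and 167 in WT and 139.5 and 117 in KO (log2 fold change -0.31, limma adjusted p = 0.294). It was the weakest member promoter per length, at 111 normalised reads per kb. Cd177, the neutrophil glycoprotein that binds PECAM1, had a single narrow peak 1102 bp upstream of its TSS, which read 64.6 and 47.3 in WT and 54.7 and 63.0 in KO. Cd68, the macrophage lysosomal protein, had a log2 fold change of -0.26 at its promoter. The scavenger receptors Cd36 and Cd163 had distal peaks only, with values from -0.47 to 0.59. A peak listed for Cd209f, of the DC-SIGN lectin family, lies in a CpG island 18281 bp away and had a log2 fold change of -0.06.

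Tetraspanins were the class with the most regular promoter accessibility, and 1 of their 16 peaks was called (6.25%, beside 10.6% of all peaks). Cd53 encodes a tetraspanin found on leukocytes generally. Its promoter peak, 2852 bp wide at chr3:106590656-106593506, spans the TSS and reaches into the first part of the gene, and its promoter sequence carries the PU.1 core shown above. It had the highest total signal of all members, with 1771 and 1504 in WT and 2016 and 2063 in KO. The libraries did not overlap, and the mean rose 1.25-fold, from 1638 ± 189 to 2039.6 ± 33.4 (SD, n = 2 each; log2 fold change 0.32, SE 0.070, limma adjusted p = 0.00438). It was the single promoter call among the members. Under cyclic loess scaling its log2 fold change was 0.13 and did not pass (limma adjusted p = 0.278).

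The other 6 tetraspanin promoters had log2 fold changes from -0.38 to 0.09. Cd63, which sits in granule and lysosome membranes and appears on the surface of degranulating neutrophils, read 299 and 281 in WT and 214 and 233 in KO. The groups did not overlap, and the change did not pass (log2 fold change -0.38, limma adjusted p = 0.0864). Cd82 had a strong promoter with 712 and 739 in WT and 731 and 779 in KO, which overlapped. Cd37, a leukocyte tetraspanin whose promoter also holds the PU.1 core, read 305 and 273 in WT and 216 and 283 in KO. Cd9 had 5 peaks, and 4 of them were distal, of which 3 lie in introns and hold up to 783 normalised reads per kb. Its most distant peak, at 49175 bp, read 336 and 392 in WT and 409.7 and 439.9 in KO (log2 fold change 0.22, limma adjusted p = 0.244). The Cd9 promoter read 495 and 465 in WT and 431 and 394 in KO (log2 fold change -0.22, limma adjusted p = 0.222). Promoter and distant peak of Cd9 thus had opposite signs, and neither passed.

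Of the 13 peaks of antigen presentation and costimulation genes, 1 fell (7.69% called, beside 10.6% of all peaks). Cd80, a ligand of the T cell costimulator Cd28, had an intergenic peak 1621 bp upstream of its TSS (chr16:38457243-38457542) that read 153 and 171 in WT and 103 and 105 in KO (log2 fold change -0.63, SE 0.189, limma adjusted p = 0.034, but 0.0513 under median centring and 0.0644 under cyclic loess). Cd86, the other ligand of Cd28, had its strongest peak 39022 bp into the gene, with 399 and 339.6 in WT and 480.4 and 449 in KO. These did not overlap and did not pass (log2 fold change 0.33, limma adjusted p = 0.0715). The values of the 2 ligand genes had opposite signs, and the difference between them was not tested. Cd274, which encodes PD-L1, was flat at its promoter, with 112 and 100.2 in WT and 114 and 92.1 in KO. Its intronic peak had a log2 fold change of 0.20. Cd74, the invariant chain of MHC class II, had intronic peaks with values of -0.03 and -0.15. Cd1d1, which presents lipids, had the largest positive promoter value of the members, 0.48, which did not pass (limma adjusted p = 0.185).

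Lymphocyte antigens were sparsely listed, and 1 of their 15 peaks was called, where 10.6% of all peaks were. The call and 9 of the 15 peaks belong to Cd180, which myeloid cells also carry. The set is too short to read a share from. Among T and NK cell antigens, 6 peaks were assigned to Cd3d, Cd5, Cd6, Cd244 and Cd247, and none passed. The strongest per length was in the 3′ UTR of Cd3d, a chain of the T cell receptor complex, with 188 and 217 in WT and 208 and 169.7 in KO. Cd5, a scavenger receptor-like inhibitor of T cell receptor signals, read 60.2 and 57.1 at its promoter in WT and 78.6 and 76.2 in KO (log2 fold change 0.40, limma adjusted p = 0.332). Cd247, which encodes the zeta chain of the T cell receptor, had both of its peaks lower in each KO library than in each WT library, with log2 fold changes of -0.51 and -0.34 that did not pass.

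Cd180, a TLR4-like receptor of B cells and myeloid cells, was the only B cell antigen with a peak among the 6 looked up. It had 9 peaks, all distal, spread from -206550 to 195630 bp, and 2 of them lie inside Mast4. The peak at -26801 bp (chr13:103456593-103457082), in a SINE repeat, rose from 55.8 and 62.6 in WT to 106 and 111 in KO (log2 fold change 0.86, SE 0.234, limma adjusted p = 0.0189). The peak at -15004 bp read 147 and 153 in WT and 99.8 and 101 in KO (log2 fold change -0.57, limma adjusted p = 0.0562). These neighbours had separated groups in opposite directions. The other 7 ran from -0.24 to 0.23.

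Stem, endothelial and stromal antigens gave 9 peaks and 0 calls, where 10.6% of all peaks were called. The set is too short to read a share from. Cd34, a sialomucin of blood stem cells and endothelium, had a weak promoter with 71.9 and 73.8 in WT and 66.2 and 40.2 in KO. Its strongest peak lay 59089 bp upstream, with 405 and 355 in WT and 393 and 373 in KO. Cd38, an NAD-consuming enzyme, had a log2 fold change of -0.34 at its promoter. Cd320, the transcobalamin receptor for vitamin B12 uptake, read 93.9 and 86.3 in WT and 56.5 and 53.3 in KO (log2 fold change -0.70, limma adjusted p = 0.0672). The promoters of the intracellular Cd2bp2 and Cd2ap had values of -0.49 and -0.39, and neither passed.

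**Figure D4:**
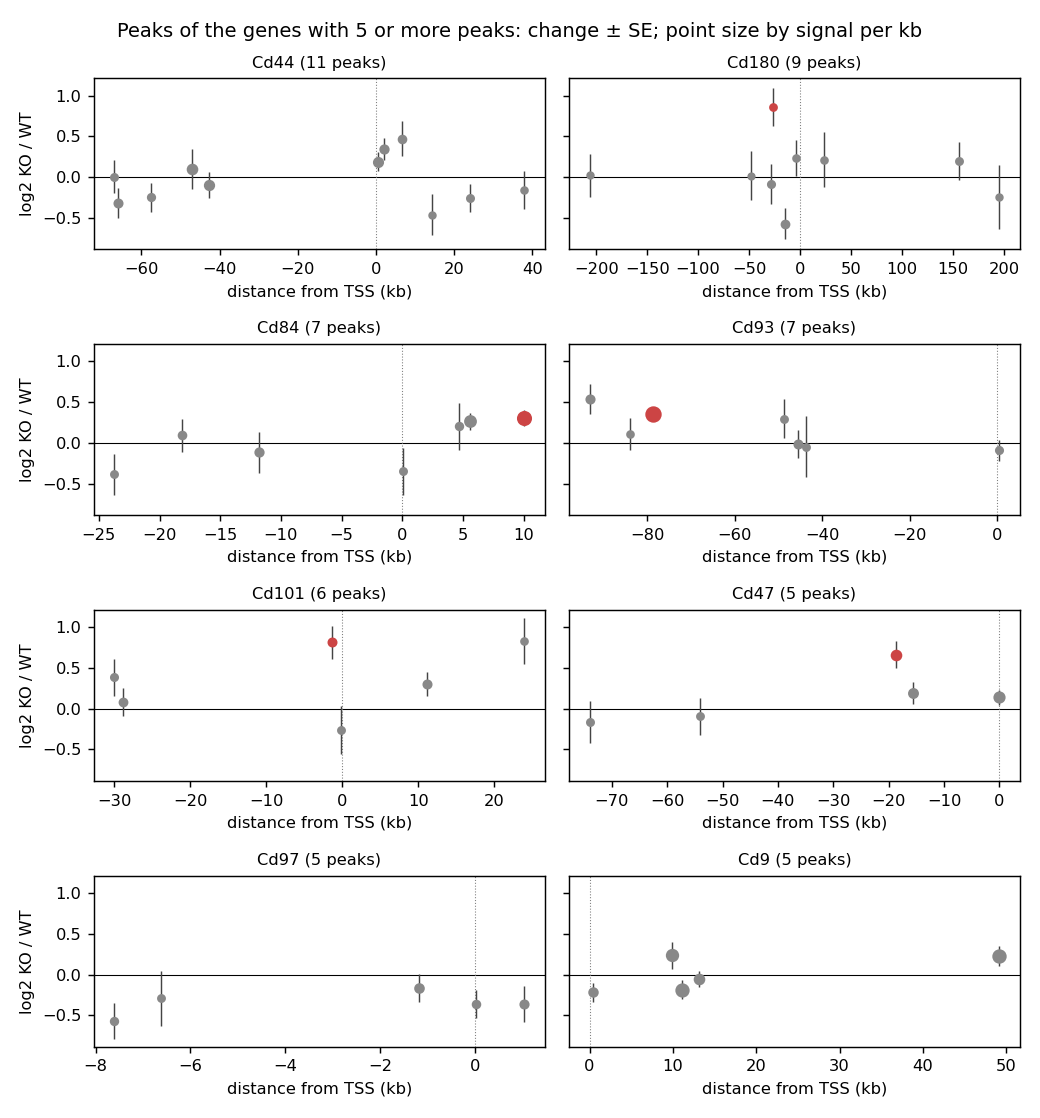
Log2 fold change of KO over WT with its SE (y axis) against distance from the listed TSS in kb (x axis) for the 8 genes with 5 or more peaks; larger points have more signal per kb and red points were called. In Cd180, Cd84, Cd93, Cd101 and Cd47 the called peak is distal and the promoter, where one is listed, was not called; Cd44, Cd97 and Cd9 have no call.

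Most genes with many peaks had values of both signs. The 14 genes with 4 or more peaks held 79 of the 139, and 22 genes had 1 peak. Cd44 had the most, 11, with 0 calls and log2 fold changes from -0.46 to 0.47. Its 3 peaks from 494 to 6663 bp past the TSS read 0.19, 0.34 and 0.47, with both KO libraries above both WT libraries in each. The 3 peaks further into the gene, from 14197 to 37908 bp, read -0.46, -0.26 and -0.16. Upstream, from -66877 to -42674 bp, the 5 peaks ran from -0.32 to 0.10. None of these passed.

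The CD genes differed from the whole table in where their peaks lay. Promoter peaks made up 23.7% of members and 38.5% of all peaks. Intergenic peaks made up 43.9% of members and 31.4% of all, and introns 37.4% and 32.4%. CpG island peaks made up 5.76% and 6.33%, and repeats 15.1% and 10.8%. Peaks more than 10000 bp from the TSS made up 48.9% and 46.1%, and 9 members lay in the transcript of another gene. The median signal per kb was 234.9 for members and 234.7 for all peaks. Among member promoters, Cd55, Cd164, Cd82, Cd53, Cd24a and Cd47 had the highest levels, from 712 to 551 normalised reads per kb. Cd14, Cd38 and Cd34 had the lowest, from 111 to 118.

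Antigens with a CD number under another symbol were looked up as a list of 45 genes. Of these, 38 had a peak and 28 a promoter peak, and of their 131 peaks 3 rose and 9 fell (9.16% called). The promoters that fell were those of the interleukin-6 receptor Il6ra (log2 fold change -0.85), the G-CSF receptor Csf3r (-0.79), Tlr2 (-0.79), the chemokine receptor Cxcr4 (-0.29), the integrin chain Itgb2 (-1.03) and Bst1 (-0.92), with limma adjusted p from 0.00217 to 0.036. Distal peaks fell at Spn, Fcgr4 and Tnfrsf1b. Increases were at the promoter of the complement receptor C5ar1 (0.41) and at distal peaks of Tlr4 (0.70) and Kit (0.51). For both lists the share called was near the background of 10.6%, and a difference between the lists was not tested.

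Markers of cell types were measured in the same way, and some lists hold CD gene peaks already counted above: all 3 T cell marker peaks (Cd3d, Cd5 and Cd6), 11 of 36 stem and progenitor, 4 of 11 eosinophil, basophil and mast cell, 3 of 18 monocyte and 1 of 34 neutrophil marker peaks. Of 18 neutrophil markers, 15 had a peak, while Ly6g, Mpo and Elane had none. Their summed signal was 8743 to 10057 in the WT libraries and 9804 to 10141 in the KO libraries, and of their 34 peaks 5 rose and 4 fell (26.5% called, beside 10.6% of all peaks). Of 13 T cell markers 3 had a peak, with sums of 376 to 380.0 in WT and 325 to 373 in KO, while Cd3e, Cd3g, Cd4 and Cd8a had none. Of 10 B cell markers 1 had a peak (Ebf1), with sums of 396 to 399 in WT and 427 to 439 in KO. Of 8 NK cell markers 3 had a peak, with sums of 1875 to 1912 in WT and 2069 to 2098 in KO. None of the 3 T cell, 5 B cell and 4 NK cell marker peaks was called, where 10.6% of all peaks were, so these lists are too short to read a share from. Monocyte and macrophage markers had a peak in 7 of 9 genes, with sums of 1657 to 1734 and 1668 to 1698 and no call. Dendritic cell markers had one in 3 of 7, with sums of 599 to 834 and 648 to 684, and erythroid markers in 2 of 8, with sums of 762 to 818 and 684 to 797, again with no call. Eosinophil, basophil and mast cell markers had one in 5 of 9, with sums of 1066 to 1126 and 1219 to 1237 and 1 increase, which is the Cd200r3 peak given above. Endothelial and stromal markers had one in 4 of 8, with sums of 892 to 939 and 846 to 883 and 1 decrease. Stem and progenitor markers, with a peak in 6 of 7, gave 3 increases among 36 peaks, with the Cd93 peak and the Kit peak given above among them, and sums of 4416 to 4902 in WT and 5104 to 5194 in KO. The part of cell composition in the member peaks was not tested.

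The KO libraries were the deeper ones. If the smallest step between values is 1 read, the peaks held 3577922 and 3803711 reads in WT and 6182922 and 7930547 in KO. The median member peak held 78 and 80 reads in the WT libraries and 129 and 167 in the KO libraries. Across member peaks, which are not independent replicates, the correlation of log2 signal was 0.983 within KO, 0.9465 within WT and 0.9287 to 0.9408 between genotypes. Of the 13 calls, Cd69 passed whichever library was left out. Cd53 missed without KO replicate 2 (limma adjusted p = 0.102) and Cd200 without KO replicate 1 (limma adjusted p = 0.161). The other 10 missed without either KO library, with limma adjusted p from 0.0608 to 0.51, and among these Cd300lb and Cd84 also missed without WT replicate 1 (0.0698 and 0.057) and Cd52 and Cd80 without WT replicate 2 (0.0971 and 0.0608). With a single variance prior in place of the mean-variance trend, all 13 missed, with limma adjusted p from 0.102 to 0.295.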

How the data were processed

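The authors deposited a table of consensus ATAC-seq peaks with a normalised signal per library (2 KO, 2 WT), per the file headers, with nearest TSS, region class and gene. The tools in the submitters' processing notes, named without roles, include MACS2 2.1.0, Trimmomatic 0.32, HOMER, BWA and DiffBind, with build mm9. The sources used here do not give mapping filters, duplicate removal, any Tn5 shift or the consensus rule, each of which can change a peak's signal. Within a library every signal was a whole multiple of one step (tolerance 0.001), taken as 1 read for depth and counting intervals, but since that identity is not established no count model was fitted. Two-sided tests used limma 3.58.1 (R 4.3.3) on log2(signal + 1) with the mean-variance trend, Benjamini-Hochberg adjustment over 23595 peaks and no filter that removed a peak. Log2 fold changes are on that scale, which understates changes of weak peaks. Signal per kb divides by peak width. RefSeq (GRCm38.p6) served for names, by gene ID, and promoter sequences. Read-ratio intervals are exact, conditional and cover counting error only. Figures used matplotlib 3.10.9.

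The members, classes and lists were chosen with earlier results of these data known. Named peaks were all called members, the 2 strongest per kb in each class, the nearest promoter and strongest distal peak of 19 listed antigens, all peaks of the genes with most peaks, and the 2 largest changes in each direction. Others named were chosen after their values were seen. Alternatives covered pseudocount, a signal filter, 3 scalings, no trend, each library left out, a replicate block and the promoter window.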

Additional observations from a re-analysis of the deposited data

How the results depend on the processing

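With 2 libraries per genotype, and KO libraries of greater depth, the counts of calls depend on the setting. Median centring gave 16 higher and 1 lower member peaks (15 and 1 distal, and 2248 higher and 777 lower over all peaks), and total scaling 7 and 5 (1 lower promoter, 879 higher and 1319 lower over all peaks), with member medians of 0.05 and -0.07 and medians of all peaks of 0.06 and -0.06. Cyclic loess gave 8 and 1 (0 promoters higher, 1 distal peak lower, and 807 higher and 888 lower over all peaks). These scalings cost 2, 3 and 5 of the 13 calls, with limma adjusted p from 0.0513 to 0.278. Without the mean-variance trend limma called 0 member peaks in either direction, promoter or distal, and 0 higher and 22 lower over all peaks. With the trend, 25 of 139 members had a positive and 17 a negative change at an unadjusted p under 0.05. Of all 23595 peaks, 3232 had a positive and 2949 a negative change at that threshold. Pseudocounts of 0.5 and 8 and a mean signal of at least 50 left 10 and 3. A promoter window of 500 bp left 0 promoters higher, since the Cd53 peak then counts as distal. Leaving out each library gave 185 to 2610 higher and 237 to 2189 lower over all peaks, 1 to 19 higher and 0 to 10 lower members, 0 to 3 and 0 to 5 promoters, and 1 to 17 and 0 to 5 distal members. In a fit with a single KO or WT library, that library is assumed to vary like the other genotype. The cause of these shifts was not tested.

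Same-numbered libraries did not deviate together across peaks (r = -0.0392 across 23595 peaks). The labels do not say whether they were prepared or sequenced together. This correlation cannot show that they were not, and a shared batch was not tested. With the replicate number as a block 12 members were higher and 4 lower, with 1 promoter higher and 1 lower, and 1656 and 1279 over all peaks.

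None of the 13 called peaks turned its direction in any of 12 alternatives, but only the scalings could have turned it. In all 13 the KO and WT libraries do not overlap, so no pseudocount and no left-out library can turn the sign. The signal filter, the fit without trend and the replicate block leave the log2 fold change as it was. Of 60 uncalled peaks named by the selection rules, 23 changed sign somewhere, none of them called there. Peaks named after their values were seen are not in this count, and some also changed sign, such as a Cd97 peak (0.06 without WT replicate 1). The 23 are given by distance from the TSS in bp. Under total scaling the log2 fold change was -0.033 for Cd180 at -206550, -0.037 for Cd180 at -48484, -0.040 for Cd34 at -59089 and -0.050 for Cd44 at -66877. Under median centring the log2 fold change was 0.012 for Cd209f at 18281, 0.048 for Cd24a at 185, 0.022 for Cd274 at -74, 0.021 for Cd93 at -43594 and 0.053 for Cd93 at -45565. Under cyclic loess the log2 fold change was 0.0084 for Cd180 at -28032, 0.030 for Cd274 at -74, -0.061 for Cd34 at -59089, 0.027 for Cd93 at -43594 and 0.0061 for Cd93 at -45565. With 1 library left out in turn it ran from -0.65 to 0.13 for Cd101 at -155, -0.13 to 0.31 for Cd177 at -1102, -0.28 to 0.32 for Cd180 at -206550, -0.20 to 0.24 for Cd180 at -48484, -0.14 to 0.56 for Cd180 at 23726, -0.013 to 0.40 for Cd180 at 155727, -0.88 to 0.39 for Cd180 at 195630, -0.11 to 0.0026 for Cd209f at 18281, -0.044 to 0.0066 for Cd24a at 185, -0.20 to 0.11 for Cd274 at -74 and -0.080 to 0.11 for Cd34 at -59089. It also ran from -0.33 to 0.089 for Cd38 at -12782, -0.25 to 0.039 for Cd3d at 4766, -0.42 to 0.11 for Cd44 at 37908, -0.24 to 0.042 for Cd44 at -42674, -0.18 to 0.37 for Cd44 at -47045, -0.13 to 0.14 for Cd44 at -66877, -0.084 to 0.27 for Cd84 at -18159, -0.22 to 0.62 for Cd84 at 4691, -0.87 to 0.78 for Cd93 at -43594, -0.12 to 0.10 for Cd93 at -45565 and -0.17 to 0.39 for Cd93 at -84068.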
